A study of Mus musculus with 12 samples.

Results

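The synaptic vesicle and release machinery was followed in cultured cerebellar granule neurons (CGNs) with and without the gene for interferon-β. It comprised 38 genes listed by name and role, and all 38 were measured among 18193 genes on the array. They were 8 vesicle membrane proteins, 3 synapsins, 4 synaptotagmins, 8 SNARE proteins and cofactors, 8 priming and active zone proteins, 3 vesicular transmitter transporters and 4 endocytic proteins.

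Transmitter is packed into synaptic vesicles, which are held near the membrane by synapsins, docked and primed at the active zone, and fused with the membrane by SNARE proteins when calcium binds a synaptotagmin. The vesicle membrane is then taken back by endocytosis. Granule neurons are the small glutamatergic neurons of the cerebellum, and in culture they form axons and release sites over days.

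RNA from B10.RIII mice was measured on Affymetrix mouse genome arrays in 4 groups of 3 arrays: untreated Ifnb+/+ CGNs, untreated Ifnb-/- CGNs, whose interferon-β gene is deleted, and each genotype after 24 hr with 100 U/ml recombinant interferon-β (rIFN-β). Per the labels the pups were 7 days old and every culture was 3 days old when lysed. Whether the 3 cultures of a group came from separate litters is not given in the sources used here, so the p-values cover only the spread between these cultures. Values are log2 of the normalized probe set intensity, and a difference of 1 on this scale is a doubling. Each gene was read from 1 probe set, so a level is compared between groups for the same gene only. The 38 members had 104 probe sets, and in the comparison of the untreated genotypes all probe sets of a gene pointed in 1 direction for 21 of the 30 members with several. Genes were called at an adjusted p under 0.05 (limma, Benjamini-Hochberg adjustment over all 18193 genes).

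Ifnb1, the deleted gene, read between 2.48 and 3.06 on all arrays of both genotypes, so its level does not check the genotype labels. Ifit1, an interferon-stimulated gene, read 2.65 to 4.06 on the untreated arrays and 9.36 to 11.44 on the treated ones. Across genes the arrays of a group correlated at 0.971 to 0.9934 in Ifnb+/+ and at 0.9975 to 0.9978 in Ifnb-/-. Among the markers, Neurod1 (granule neurons) read 11.32 to 12.5, Gad1 (GABAergic interneurons) 9.45 to 11.29, Gfap (astrocytes) 7.29 to 10.31, and Mbp (oligodendrocytes) 9.87 to 10.71. Within the oligodendrocyte list Mog read 2.22 to 3.05, and in the endothelial list Cldn5 read 3.04 to 3.9 and Pecam1 2.36 to 3.27. Levels of different probe sets are not comparable, so these values do not give the share of any cell type.

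Synpr was the only member called in any of the 5 comparisons, and it was higher in untreated Ifnb-/- than in untreated Ifnb+/+ CGNs. This was 1 of 38 members, where 0.033% of all genes were called higher in Ifnb-/-. No member was called lower, where 0.0824% of genes were. At an unadjusted p under 0.05, 10 of 38 members (26.3%) were higher in Ifnb-/- against 8.4% of all genes, and 1 member was lower against 12.8%. Arrays of the untreated genotypes did not overlap for 14 members that read higher in Ifnb-/-, against 10.1% of genes, and for 1 that read lower, Amph, against 18.1%. The median log2 difference of the 38 members was 0.03 and that of all genes -0.09. In a bulk culture, fewer cells of a type and less RNA per cell cannot be told apart.

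**Figure D1:**
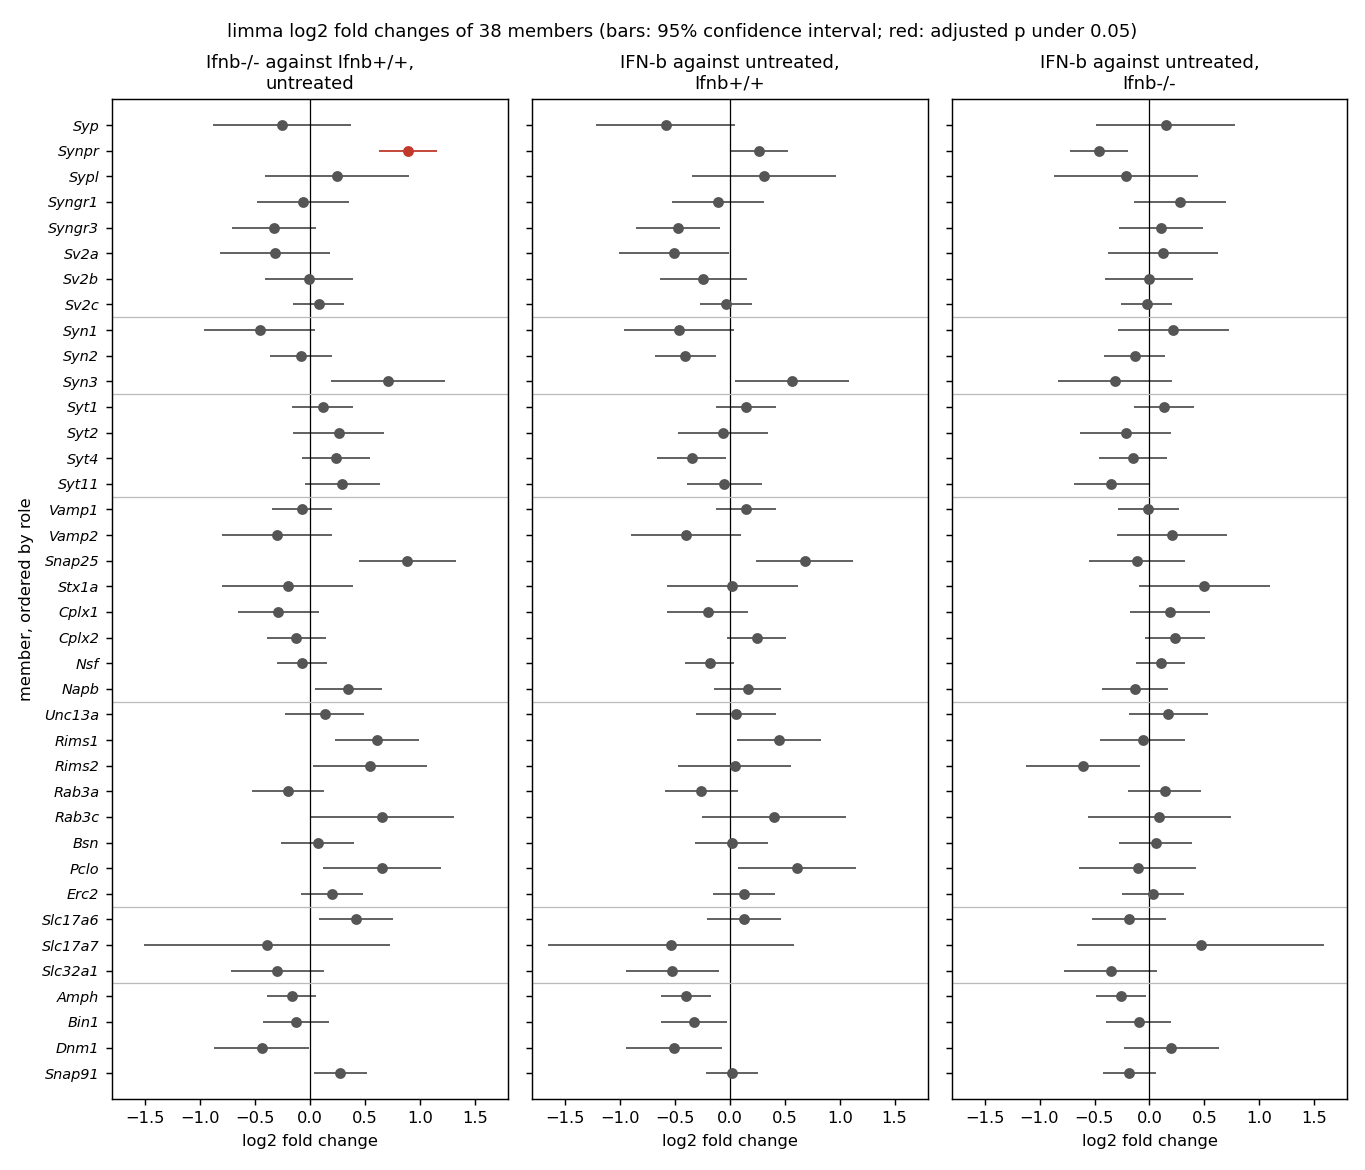
Log2 fold change of each of the 38 members (points) with its 95% confidence interval (bars), for untreated Ifnb-/- against Ifnb+/+ CGNs and for rIFN-β against untreated CGNs in each genotype, with 3 arrays per group and grey lines between roles. Synpr in the genotype comparison, at 0.89, is the only red point, which marks an adjusted p under 0.05.

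With rIFN-β in Ifnb+/+ CGNs, limma called 0 of 38 members, where 1.78% of all genes were called higher and 1.36% lower. The methods' t-test, adjusted in the same way, called 0.0% of all genes there, so it cannot set the members apart from other genes. At an unadjusted p under 0.05, 5 members were higher against 8.81% of genes and 8 were lower against 11.1%. Arrays with and without rIFN-β did not overlap for 2 members that read higher, Cplx2 and Synpr, against 6.67% of genes, and for 7 that read lower, Amph, Bin1, Nsf, Slc32a1, Syn2, Syngr3 and Syt4, against 9.28%. Median differences were -0.04 for the members and -0.03 for all genes. In Ifnb-/- CGNs limma again called 0 members, against 0.929% of genes called higher and 0.742% lower. The methods' t-test also called 0 members there, where it called 1.84% of all genes. At an unadjusted p under 0.05 no member was higher and 4 were lower, Amph, Rims2, Synpr and Syt11, against 9.16% and 5.44% of genes. There 4 members read higher without overlap (Cplx2, Stx1a, Syngr1 and Unc13a), against 20.3% of genes, and 5 read lower (Amph, Rims2, Syn3, Synpr and Syt11), against 12.6%. The median was -0.01 for the members and 0.07 for all genes.

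Between the treated genotypes limma called 0 members, where 0.0055% of genes were called higher and 0.055% lower in Ifnb-/-. The methods' t-test called 0.0% of all genes there, so it cannot set the members apart from other genes. Only Syt4 had an unadjusted p under 0.05, where 1.88% of genes were higher at that limit. Nsf and Syt4 read higher in treated Ifnb-/- without overlap, against 4.64% of genes, and Vamp1 lower, against 3.47%. The interaction, which asks whether the change with rIFN-β differed between genotypes, gave 0 called members, where 0.022% of genes were called positive and 0.0% negative. At an unadjusted p under 0.05, Dnm1 and Syngr3 were positive, against 10.1% of genes, and Snap25, Syn3 and Synpr negative, against 5.21%. The untreated Ifnb+/+ arrays enter the genotype comparison, rIFN-β in Ifnb+/+ and the interaction, so these comparisons are not independent of each other.

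Synpr encodes synaptoporin, a vesicle membrane protein of the synaptophysin family, and was measured by a single probe set. It read 8.29, 8.53 and 8.4 on the Ifnb+/+ arrays and 9.35, 9.35 and 9.19 on the Ifnb-/- arrays. It read 8.7, 8.79 and 8.54 in treated Ifnb+/+ and 9.01, 8.84 and 8.66 in treated Ifnb-/-. All 3 untreated Ifnb-/- arrays lay above every other array, and the treated groups lay between the untreated ones and overlapped each other. Synpr was 0.89 ± 0.12 (SE) higher in untreated Ifnb-/- CGNs, a 1.85-fold difference (95% confidence interval 0.62 to 1.16 on the log2 scale, adjusted p = 0.0165). With rIFN-β in Ifnb-/- CGNs it differed by -0.46 ± 0.12 (adjusted p = 0.091) and in Ifnb+/+ CGNs by 0.27 ± 0.12 (adjusted p = 0.246), neither of which passed the test. The interaction of -0.73 ± 0.17 did not pass it either (adjusted p = 0.323), although its direction was negative under every alternative run. The genotype difference lay between 0.83 and 0.97 under all alternatives, but its adjusted p was 0.114 without Ifnb+/+ replicate 3, and 0.163, 0.135 and 0.0949 without Ifnb-/- replicates 1, 2 and 3. It was 0.056 with the fit limited to the compared groups and 0.13 by the methods' t-test.

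The Synpr gene lies on chromosome 14, from 13284780 to 13615469 on the plus strand in the mouse build GRCm38.p6, and RefSeq gives it 2 start sites. The sequence around each start, 300 bases in all, is shown because Synpr was the only member called. Capitals mark CCAAT and GGGCGG, read on both strands.
Synpr promoter 1, chr14:13284530-13284829, plus strand: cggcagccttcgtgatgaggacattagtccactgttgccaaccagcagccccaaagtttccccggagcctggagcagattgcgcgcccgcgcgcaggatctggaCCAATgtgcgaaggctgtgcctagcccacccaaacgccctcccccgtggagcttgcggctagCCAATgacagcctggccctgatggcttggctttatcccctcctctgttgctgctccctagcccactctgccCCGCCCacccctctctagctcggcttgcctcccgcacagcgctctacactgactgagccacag
Synpr promoter 2, chr14:13453708-13454007, plus strand: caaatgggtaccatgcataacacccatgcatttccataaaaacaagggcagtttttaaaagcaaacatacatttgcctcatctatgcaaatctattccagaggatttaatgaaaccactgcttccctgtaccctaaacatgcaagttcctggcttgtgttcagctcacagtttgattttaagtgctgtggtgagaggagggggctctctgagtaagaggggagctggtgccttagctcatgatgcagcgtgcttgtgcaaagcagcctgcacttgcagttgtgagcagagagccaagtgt
The first holds CCAAT at bases 105 and 167 and GGGCGG, on the opposite strand, at base 238, and 63.7% of its bases are G or C. The second holds neither motif and has 46.0% G or C. Neither held the core of the interferon-stimulated response element, the gamma-activated site TTCNNNGAA or the cyclic AMP response element TGACGTCA, so these letters are not in these windows. Promoters were matched for 31 of the 38 members, 41 promoters in all. The interferon-stimulated response element core was in 3 of the 41 (Sv2b, Unc13a and Vamp1), or 7.32%, against 3.43% of 32817 promoters, and GGGCGG was in 63.4% against 35.6%. CCAAT was in fewer of the members' promoters, 19.5% against 37.4%, as was TTCNNNGAA, 4.88% against 8.29%. TGACGTCA was in 2.44% against 1.79%. The median share of G or C was 62.3% in the members' promoters and 52.7% in all promoters. These are matches of letters in a window, and no binding was measured.

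Among the other vesicle membrane proteins, Syp and its family read in opposite directions on the Ifnb+/+ arrays. Syp, synaptophysin, read 10.53, 9.52 and 10.04 in Ifnb+/+, 9.68, 9.78 and 9.87 in Ifnb-/-, 9.85, 9.57 and 8.93 in treated Ifnb+/+ and 10.06, 9.42 and 10.3 in treated Ifnb-/-. Sypl, a synaptophysin-like protein also found outside neurons, read 6.46, 7.61 and 7.21 in Ifnb+/+, 7.36, 7.34 and 7.32 in Ifnb-/-, 7.21, 7.13 and 7.88 in treated Ifnb+/+ and 6.93, 7.69 and 6.76 in treated Ifnb-/-. On the untreated Ifnb+/+ arrays Syp was highest where Sypl was lowest, and the groups overlapped for both. For the genotype, Syp differed by -0.25 ± 0.29 (adjusted p = 0.622) and Sypl by 0.25 ± 0.30 (adjusted p = 0.648).

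Syngr3, a synaptogyrin, read 8.94, 8.21 and 8.58 in Ifnb+/+ and 8.26, 8.2 and 8.29 in Ifnb-/- CGNs. With rIFN-β it read 8.2, 8.2 and 7.91 in Ifnb+/+, below every untreated array of that genotype, and 8.42, 8.12 and 8.53 in Ifnb-/-. Its difference with rIFN-β was -0.47 ± 0.17 in Ifnb+/+ (adjusted p = 0.167) and 0.11 ± 0.17 in Ifnb-/- (adjusted p = 0.801). Syngr1, of the same family, differed by -0.11 and 0.28. Of the SV2 proteins, glycoproteins of the vesicle membrane, Sv2a read 9.5, 8.6 and 9.07 in untreated and 8.7, 8.81 and 8.15 in treated Ifnb+/+, which overlapped, and differed by -0.505 ± 0.23 (adjusted p = 0.246). Sv2b differed by -0.01 between untreated genotypes with an interval from -0.41 to 0.39. Sv2c read between 2.29 and 2.6 on all 12 arrays.

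The 3 synapsins, phosphoproteins that tether vesicles to each other and to actin, did not move as a group. Syn1 read 9.91, 8.81 and 9.54 in Ifnb+/+, 8.96, 8.92 and 9.01 in Ifnb-/-, 9.07, 9.12 and 8.68 in treated Ifnb+/+ and 9.25, 8.93 and 9.35 in treated Ifnb-/-. Syn3 read 6.87, 8.09 and 7.62 in Ifnb+/+, 8.19, 8.26 and 8.24 in Ifnb-/-, 7.86, 8.22 and 8.19 in treated Ifnb+/+ and 7.87, 8.1 and 7.78 in treated Ifnb-/-. The Ifnb-/- arrays lay above all Ifnb+/+ arrays for Syn3 and within their spread for Syn1. Syn3 was 0.71 ± 0.24 higher in untreated Ifnb-/- CGNs (adjusted p = 0.187) and Syn1 differed by -0.46 ± 0.23 (adjusted p = 0.268). For Syn3 the interaction was -0.88 ± 0.34 (adjusted p = 0.323).

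Syn2 differed by -0.08 between the untreated genotypes (adjusted p = 0.739). It read 9.45, 9.27 and 9.44 in untreated Ifnb+/+ and 9.12, 9.08 and 8.75 with rIFN-β, without overlap, a difference of -0.40 ± 0.13 (adjusted p = 0.118). Another of the 6 Syn2 probe sets read 8.67, 8.47 and 8.67 in untreated Ifnb+/+ and 8.12, 7.87 and 7.67 with rIFN-β. It fell by 0.71 when every probe set was tested on its own (SE 0.15, adjusted p = 0.0359). In that test 0.739% of all 45037 probe sets were called lower. No other Syn2 probe set, the brighter one included, was called there.

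The 4 synaptotagmins, of which Syt1 and Syt2 are the fast calcium sensors of release and Syt4 and Syt11 are atypical members of the family, all read slightly higher in untreated Ifnb-/- CGNs. Their arrays did not overlap between the untreated genotypes, where 10.1% of all genes read higher without overlap, and none passed the test. The gap was narrow for Syt4, whose highest Ifnb+/+ and lowest Ifnb-/- arrays both read 9.23. For Syt1 these arrays read 10.45 and 10.48. The differences were 0.12 for Syt1, 0.26 for Syt2, 0.23 for Syt4 and 0.295 for Syt11 (adjusted p 0.285 to 0.607). For Syt1 the interval ran from -0.16 to 0.39. Syt4 read 8.99, 8.84 and 8.58 in treated Ifnb+/+ and 9.47, 9.18 and 9.05 in treated Ifnb-/-. These arrays did not overlap, and the difference was 0.43 ± 0.14 (adjusted p = 0.638).

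Of the SNARE proteins and their cofactors, Snap25 had the largest genotype difference among the 8, and it was the second largest of all members after Synpr. Snap25, the membrane SNARE that pairs with syntaxin, read 9.77, 10.47 and 10.13 in Ifnb+/+, 10.94, 11.12 and 10.97 in Ifnb-/-, 10.37, 11.06 and 10.97 in treated Ifnb+/+ and 11.09, 10.81 and 10.79 in treated Ifnb-/-. All Ifnb-/- arrays lay above all untreated Ifnb+/+ arrays, whereas the Ifnb+/+ groups with and without rIFN-β overlapped. The differences were 0.885 ± 0.20 for the genotype (adjusted p = 0.128), 0.68 ± 0.20 for rIFN-β in Ifnb+/+ (adjusted p = 0.0968) and -0.12 ± 0.20 for rIFN-β in Ifnb-/- (adjusted p = 0.812).

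Stx1a, the syntaxin of the same complex, read 8.73, 7.4 and 8.18 in Ifnb+/+, a spread that covered every other array. It read 8, 7.88 and 7.82 in Ifnb-/-, 7.81, 8.54 and 8.03 in treated Ifnb+/+ and 8.48, 8.23 and 8.48 in treated Ifnb-/-. With rIFN-β in Ifnb-/- CGNs the arrays did not overlap and the difference was 0.50 ± 0.27 (adjusted p = 0.425). The vesicle SNARE Vamp2 differed by -0.30 ± 0.23 between the untreated genotypes (adjusted p = 0.444). Vamp1, its relative, read 5.34, 5.5 and 5.44 in treated Ifnb+/+ and 5.08, 5.29 and 5.22 in treated Ifnb-/-, a difference of -0.23 ± 0.13 (adjusted p = 0.988).

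Complexins clamp and promote fusion. Cplx1 differed by -0.29 ± 0.17 (adjusted p = 0.323) and Cplx2 by -0.12 ± 0.12 (adjusted p = 0.569) between the untreated genotypes. Neither SNARE recycling factor was called. Nsf, the ATPase, had a difference of -0.07 with an interval from -0.30 to 0.15, and Napb, a SNAP adaptor, read higher in Ifnb-/- by 0.35 ± 0.14 without overlap (adjusted p = 0.208).

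Of the 8 priming and active zone genes, 7 had a positive genotype difference, and 4 of them, Pclo, Rab3c, Rims1 and Rims2, had an unadjusted p under 0.05, where 8.4% of all genes were higher at that limit. The median over the 8 was 0.37, against -0.09 for all genes. Pclo, the active zone scaffold piccolo, read 6.66, 7.76 and 7.43 in Ifnb+/+, 7.96, 7.94 and 7.93 in Ifnb-/-, 7.53, 8.26 and 7.89 in treated Ifnb+/+ and 7.81, 8.01 and 7.68 in treated Ifnb-/-. Rab3c, a small GTPase of vesicles, read 8.88, 9.48 and 9.13 in Ifnb+/+, 9.67, 9.9 and 9.9 in Ifnb-/-, 8.71, 10.27 and 9.73 in treated Ifnb+/+ and 9.96, 9.97 and 9.81 in treated Ifnb-/-. For both, the untreated genotypes did not overlap, while the Ifnb+/+ groups with and without rIFN-β did. The differences between the untreated genotypes were 0.66 ± 0.24 for Pclo (adjusted p = 0.199) and 0.66 ± 0.30 for Rab3c (adjusted p = 0.233).

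Rims1 and Rims2 encode RIM proteins, which link Rab3 on vesicles to calcium channels. Rims1 read 7.81, 8.35 and 8.11 in Ifnb+/+, 8.6, 8.73 and 8.78 in Ifnb-/-, 8.23, 8.91 and 8.49 in treated Ifnb+/+ and 8.78, 8.59 and 8.55 in treated Ifnb-/-. It was 0.61 ± 0.18 higher in untreated Ifnb-/- CGNs (adjusted p = 0.169). Rims2 read 5.86, 7.01 and 6.58 in Ifnb+/+, 6.81, 7.22 and 7.06 in Ifnb-/-, 6.46, 6.39 and 6.74 in treated Ifnb+/+ and 6.55, 6.22 and 6.5 in treated Ifnb-/-. Within Ifnb-/- the treated arrays lay below the untreated ones, a difference of -0.60 ± 0.24 (adjusted p = 0.271). Bsn, bassoon, differed by 0.07 with an interval from -0.26 to 0.40, Erc2 by 0.20, Unc13a, the priming factor Munc13, by 0.13 and Rab3a by -0.20 (adjusted p 0.362 to 0.804).

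The vesicular transporters separate glutamatergic from inhibitory vesicles. Slc17a6 (VGLUT2) read 9.15, 9.44 and 9.36 in Ifnb+/+, 9.68, 9.81 and 9.71 in Ifnb-/-, 9.12, 9.71 and 9.49 in treated Ifnb+/+ and 9.55, 9.74 and 9.35 in treated Ifnb-/-. Slc17a7 (VGLUT1) read 6.46, 4.49 and 5.79 in Ifnb+/+, 4.92, 5.17 and 5.47 in Ifnb-/-, 5.4, 4.98 and 4.78 in treated Ifnb+/+ and 6.01, 4.45 and 6.5 in treated Ifnb-/-. Slc32a1 (VGAT), the transporter of GABA and glycine, read 8, 8.42 and 8.31 in Ifnb+/+, 7.88, 7.91 and 8.04 in Ifnb-/-, 7.87, 7.62 and 7.67 in treated Ifnb+/+ and 7.74, 7.08 and 7.95 in treated Ifnb-/-. Slc17a6 was higher on all Ifnb-/- than on all Ifnb+/+ untreated arrays, Slc32a1 was lower on all treated than on all untreated Ifnb+/+ arrays, and Slc17a7 spread over about 2 log2 units in a pair of groups.

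For Slc17a6 the genotype difference was 0.42 ± 0.15 (adjusted p = 0.198). Slc17a7 differed by -0.39 ± 0.51 (adjusted p = 0.674), and its interaction of 0.99 ± 0.73 was the largest positive one among the members (adjusted p = 0.455). Slc32a1 differed with rIFN-β by -0.52 ± 0.19 in Ifnb+/+ (adjusted p = 0.169) and by -0.35 ± 0.19 in Ifnb-/- (adjusted p = 0.425). Among the 8 measured GABAergic interneuron markers none was called in either genotype. Their median difference with rIFN-β was -0.43 in Ifnb+/+ and -0.53 in Ifnb-/-, with 6 and 7 of 8 negative. Their summed log2 level was 45.5 to 50.5 in untreated and 44.9 to 47.4 in treated Ifnb+/+ arrays, which overlapped, and 48.4 to 48.8 and 42 to 46.6 in Ifnb-/- arrays, which did not. Their part in the Slc32a1 values was not tested.

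Of the 4 endocytic genes, 3 had a negative difference with rIFN-β in Ifnb+/+ and 3 in Ifnb-/- CGNs, and none was called. Amph, amphiphysin, which bends membrane and recruits dynamin, read 10.47, 10.25 and 10.37 in Ifnb+/+, 10.16, 10.22 and 10.22 in Ifnb-/-, 9.94, 10.02 and 9.94 in treated Ifnb+/+ and 10.02, 9.79 and 10 in treated Ifnb-/-. Both treated groups lay below both untreated groups. The differences were -0.40 ± 0.10 in Ifnb+/+ (adjusted p = 0.062) and -0.26 ± 0.10 in Ifnb-/- (adjusted p = 0.275), neither of which passed the test. Over the alternatives the adjusted p of Amph in Ifnb+/+ ran from 0.00173 to 0.359. It was under 0.05 with array weights (0.00173), with weights gene by gene (0.00984), without Ifnb+/+ replicate 2 (0.0235), with probe sets averaged per gene (0.0448), without Ifnb-/- replicate 2 with rIFN-β (0.0452) and with quantile normalization once more (0.048), and under no other alternative. Amph has 1 probe set, so the averaging changed other genes and left its difference at -0.398.

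Dnm1, the GTPase dynamin that cuts vesicles from the membrane, read 9.41, 8.7 and 9.11 in Ifnb+/+, 8.6, 8.58 and 8.72 in Ifnb-/-, 8.57, 8.75 and 8.38 in treated Ifnb+/+ and 8.89, 8.45 and 9.15 in treated Ifnb-/-. The groups overlapped in each comparison, and the differences were -0.44 ± 0.20 for the genotype (adjusted p = 0.232) and -0.505 ± 0.20 for rIFN-β in Ifnb+/+ (adjusted p = 0.191). Bin1, a relative of amphiphysin, differed by -0.33 ± 0.14 with rIFN-β in Ifnb+/+ (adjusted p = 0.214). Snap91, an adaptor of clathrin coats, read higher in untreated Ifnb-/- by 0.28 ± 0.11 (adjusted p = 0.208).

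**Figure D2:**
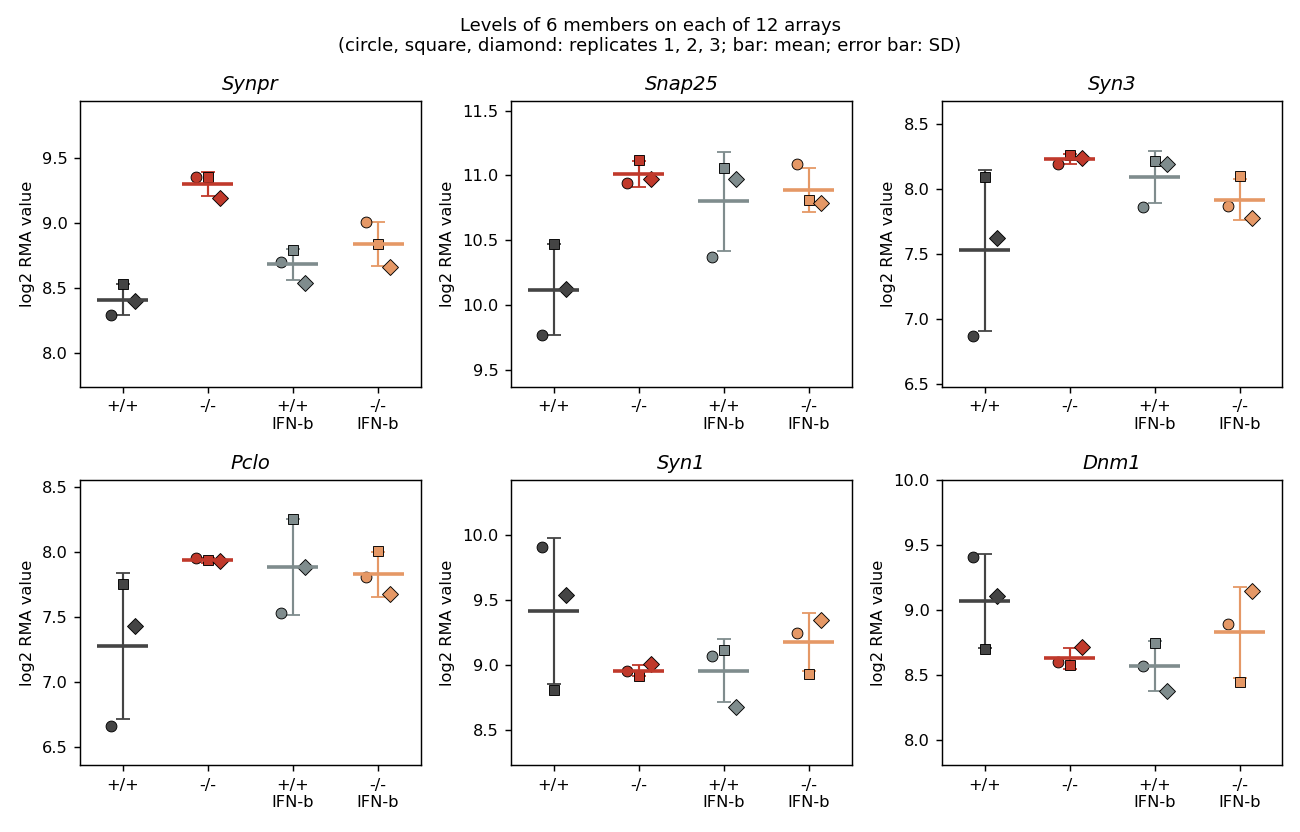
Log2 level of 6 members on each array by group, with circles, squares and diamonds for replicates 1, 2 and 3, horizontal bars for means and error bars for the SD (n = 3). Synpr separates the untreated genotypes with little spread. Snap25, Syn3, Pclo, Syn1 and Dnm1 have their widest range on the untreated Ifnb+/+ arrays, 0.71 to 1.22 log2 units. The SD of Snap25 is 0.35 there and 0.38 in treated Ifnb+/+, and that of Dnm1 is 0.36 there and 0.35 in treated Ifnb-/-.

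Of the 4 groups, untreated Ifnb+/+ had the widest spread between arrays. The median range of a member over the 3 arrays was 0.493 in Ifnb+/+, 0.139 in Ifnb-/-, 0.432 in treated Ifnb+/+ and 0.331 in treated Ifnb-/-. For all genes it was 0.387, 0.166, 0.327 and 0.293. In Ifnb+/+, 8 members ranged over more than 1, and none did in Ifnb-/-. Replicate 3 lay between the other two for 35 of 38 members, as it did for 69.3% of all genes, where an even split between 3 arrays gives 33.3%. In the other groups no array lay in the middle for more than 47.8% of genes. Replicate 1 was the highest for 19 members and the lowest for 18. Whether the 3 Ifnb+/+ arrays are independent of each other was not tested, and every p-value of a comparison with this group rests on them.

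Members moved in opposite directions along these arrays. On Ifnb+/+ replicate 1 compared with replicate 2, Slc17a7 was higher by 1.98, Stx1a by 1.33, Syn1 by 1.1, Syp by 1.01, Sv2a by 0.9 and Vamp2 by 0.89. In the reverse direction Syn3 was at -1.22, Sypl at -1.15, Rims2 at -1.14, Pclo at -1.1 and Snap25 at -0.71. Markers of other cells differed along the same arrays, within a list in both directions. Gfap read 10.25, 7.29 and 9.31 and Gad1 9.99, 11.29 and 10.91 on replicates 1, 2 and 3, while Gja1, an astrocyte marker like Gfap, read 8.39, 9.35 and 9.02. Of the 11 astrocyte markers 5 were highest and 5 lowest on replicate 1, of the 10 oligodendrocyte markers 8 and 1, and of the 8 GABAergic markers 2 and 6. Summed over their lists, the 11 astrocyte markers came to 95.4, 90.6 and 94.1, the 10 oligodendrocyte markers to 64.9, 61.4 and 63.1, and the 8 GABAergic markers to 45.5, 50.5 and 48.9. The 15 granule neuron markers came to 128.1, 126.8 and 128.3. The part of these lists in the members' values was not tested.

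**Figure D3:**
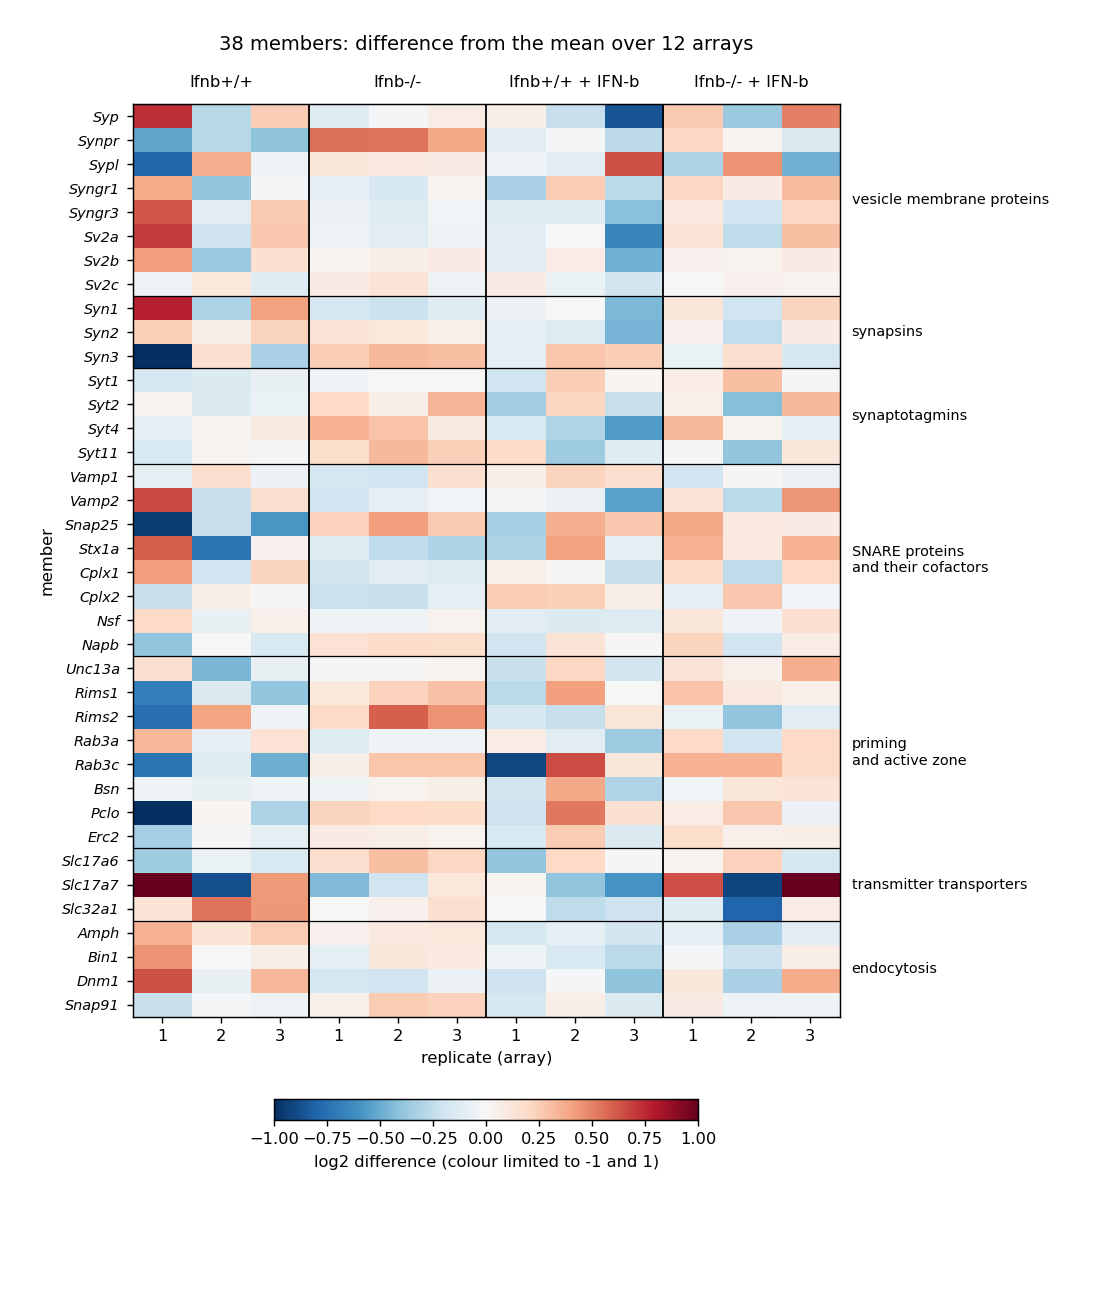
Difference of each of the 38 members (rows, by role) from its mean over 12 arrays (columns, 3 per group), in log2 units with the colour limited to -1 and 1. The strongest colours lie in Ifnb+/+ replicate 1, where Slc17a7, Syn1, Syp and Sv2a are high and Syn3, Pclo and Snap25 low, and the Ifnb-/- columns are nearly uniform.

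Without Ifnb+/+ replicate 2, 6 members were called higher in untreated Ifnb-/- CGNs, namely Pclo, Rims1, Rims2, Snap25, Syn3 and Synpr, where 9.05% of genes were then called higher. Dnm1, Syn1 and Syngr3 were called lower, where 12.1% of genes were. With rIFN-β in Ifnb+/+ the same omission called Pclo, Snap25 and Syn3 higher against 7.18% of genes and Amph, Dnm1, Sv2a, Syn1, Syn2 and Syngr3 lower against 8.78%. For the interaction it called Syn1 positive and Syn3 and Synpr negative, against 4.41% and 2.39%. Without Ifnb+/+ replicate 1, Synpr alone was called in the genotype comparison, where 0.022% of genes were called higher.

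Gene size, which the list did not use, was set against these differences. Gene span on the genome ran from 3.9 kb for Vamp2 and Rab3a to 856.3 kb for Erc2. Of the 15 members over 100 kb, among them Synpr, Syn3, Pclo, Rims1, Rims2 and Rab3c, 11 had a positive genotype difference, with a median of 0.26, while 52.1% of the 2248 such genes on the array were positive, with a median of 0.02. Of the 23 shorter members 8 were positive, with a median of -0.13, against 32.0% of 15894 genes and a median of -0.10. Snap25 (69 kb), Slc17a6 (49.3 kb) and Napb (38.4 kb) were short genes among the members higher at an unadjusted p under 0.05. Amph (205.9 kb) was a long gene that read lower in Ifnb-/-.

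Across the 38 members, log span correlated with the genotype difference at Pearson's r = 0.59 (Spearman's rho 0.58), and across 18142 genes at 0.22. Without Ifnb+/+ replicate 1, 2 or 3 the value over the members was 0.50, 0.58 and 0.59. It was 0.55 for rIFN-β in Ifnb+/+, where it was 0.09 over all genes, and -0.36 for rIFN-β in Ifnb-/-, where it was -0.14. Between the treated genotypes, a comparison without the untreated Ifnb+/+ arrays, the sign was opposite, -0.29 over the members and -0.08 over all genes. For Ifnb+/+ replicate 1 minus replicate 2, within 1 group, it was -0.48 over the members and -0.24 over all genes. These are descriptions across genes that share the same arrays, and genes are not independent replicates.

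**Figure D4:**
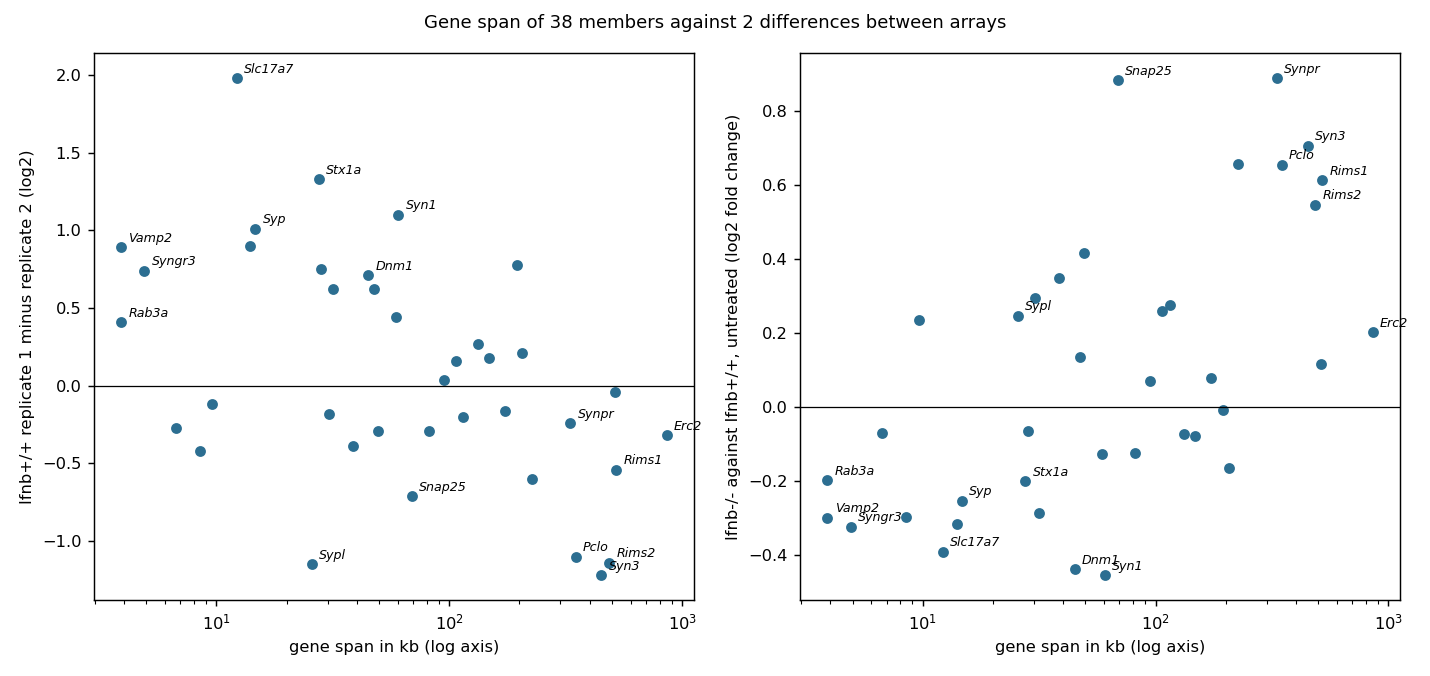
Gene span of the 38 members in kb (log axis) against the log2 difference between replicates 1 and 2 of untreated Ifnb+/+ (left) and against the log2 fold change of untreated Ifnb-/- over Ifnb+/+ (right), 1 point per gene. Short genes such as Slc17a7, Vamp2 and Syngr3 lie above 0 on the left and below it on the right, and long genes such as Syn3, Pclo and Rims2 the reverse. Other genes do not: on the left 5 of the 15 genes over 100 kb lie above 0 and 9 of the 23 shorter ones below. On the right 4 of the 15 lie below 0 and 8 of the 23 above.

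Of 118 further measured genes, 0 were called for the untreated genotypes, with a median of -0.07 and, before adjustment, 21 higher and 15 lower with p under 0.05, where 8.4% and 12.8% of all genes were. The 23 other vesicle membrane and transport genes had 19 negative genotype differences (median -0.28), the 14 other calcium sensors 11 (median -0.12), the 23 other SNARE proteins and cofactors 9 (median 0.06), the 29 other priming and active zone genes 15 (median -0.02) and the 29 other endocytosis genes 16 (median -0.03). With rIFN-β, Tprgl alone of the 118 was called, lower in Ifnb+/+ CGNs, where 1.36% of all genes were called lower and 1.78% higher. It encodes a vesicle protein, mover, and read 9.81, 9.56 and 9.66 in untreated Ifnb+/+ and 9.3, 9.1 and 8.98 with rIFN-β. Tprgl fell by 0.55 in Ifnb+/+ CGNs (SE 0.12, adjusted p = 0.0332) and differed by -0.46 ± 0.12 in Ifnb-/- CGNs (adjusted p = 0.0925), and in both genotypes the treated arrays lay below the untreated ones.

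Summed levels of 4 of the 10 marker lists did not overlap between the untreated genotypes. The 15 granule neuron markers had a median genotype difference of 0.17, with 12 of 15 positive and none called, and a summed log2 level of 126.8 to 128.3 in Ifnb+/+ and 130.5 to 131.3 in Ifnb-/-. The 14 microglia markers had a median of -0.44, against -0.09 for all genes, with all 14 negative. Fcgr1 and Trem2 were called lower, where 0.0824% of all genes were. With rIFN-β in Ifnb+/+ CGNs 12 of the 14 were negative and 7 were called lower, against 1.36% of genes. In Ifnb-/- CGNs 8 were positive and 6 negative with rIFN-β, and Fcgr1 averaged 5.42 without and 6.46 with it. The 14 markers summed to 93.8 to 94.8 in Ifnb+/+ and 86.1 to 88.6 in Ifnb-/-, and to 83.6 to 87.8 in treated Ifnb+/+ and 84.2 to 86.3 in treated Ifnb-/-. The 10 general neuron markers summed to 96.4 to 98.8 in Ifnb+/+ and 99 to 100.1 in Ifnb-/-, with 8 of 10 positive, and the 9 endothelial and pericyte markers to 32.8 to 33.8 and 30.9 to 31.7, with 8 of 9 negative and none called in either list. The part of these lists in the Synpr difference was not tested.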

How the data were processed

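RNA of 12 CGN cultures was measured on Affymetrix mouse genome arrays, with a separate array for each culture. The authors used Arraystar for quantile normalization and RMA, and the deposited log2 intensities cover 45037 probe sets. Reads and depth do not apply to arrays, and the number of arrays limits the precision. The values were not normalized again for the main results. Quantile normalization brings the distributions of the arrays close together, so a shift common to most genes cannot be read from these values. The deposited distributions were not identical, and the median over all probe sets ran from 4.328 to 4.419 between arrays. The median genotype difference of all genes was -0.09, and -0.024 with quantile normalization once more.

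Of the probe sets, 34945 named 1 gene, 932 several and 9160 none in the platform annotation. Each of 18193 genes was represented by whichever of its single-gene probe sets was brightest on average over 12 arrays. Symbols and gene spans came from RefSeq (GRCm38.p6), and promoters from its start sites. Motifs were searched on both strands.

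Groups came from the sample labels. limma 3.58.1 in R 4.3.3 fitted a mean for each of 4 groups to all arrays, which left 8 residual degrees of freedom. Variances were moderated by empirical Bayes, p-values were adjusted by Benjamini-Hochberg per comparison across every gene, and it was tested on simulated data. The 38 members and the lists of other pathway genes and cell type markers were chosen with earlier results of these data known. Values per array are given for members called in any comparison, those with the largest difference in each direction (4 for the untreated genotypes, 2 for each other comparison) and the 3 transporters. Amph, Rims1, Syn2 and Syt4 were added after their values were seen. Alternatives were other summaries of probe sets, a filter at a mean of 5, quantile normalization once more, centring, array weights, other variance models, a fit limited to the compared groups, the methods' t-test, a replicate block, thresholds of 1.5-fold and unadjusted p under 0.05, and each array left out.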

Additional observations from a re-analysis of the deposited data

How the results depend on the processing

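Before adjustment, the methods' t-test put 10 members higher and 0 lower past its threshold between the genotypes without rIFN-β, where 3.75% and 8.38% of all genes were, and 1 and 1 between those with it, against 2.17% and 1.74%. The change with rIFN-β gave 0 and 3 in Ifnb+/+, against 3.39% and 4.68%, and 2 and 4 in Ifnb-/-, against 12.6% and 9.16%. Each count of called members below is followed by the share of all genes called in the same way. The number of members called for the untreated genotypes was 1 (0.115%). It was 28 with array weights (14 higher and 14 lower in Ifnb-/-, 59.8%), 20 with array weights estimated gene by gene (12 higher and 8 lower, 43.7%), 6 at 1.5-fold with an unadjusted p under 0.05 (5.98%), 0 with the fit limited to the compared groups (0.104%) and 0 by the methods' t-test (0.033%). When each array was left out it was 0 to 9, with 9 without Ifnb+/+ replicate 2, where 21.1% of all genes were called. For rIFN-β in Ifnb+/+ the 0 calls became 17 with array weights (30.8%), 11 with weights gene by gene (18.1%), 2 at 1.5-fold with an unadjusted p under 0.05 (7.49%), 1 with probe sets averaged per gene (3.0%), 1 with every probe set on its own (1.77%), 1 with quantile normalization once more (3.03%), and 0 to 9 when each array was left out (9 without Ifnb+/+ replicate 2, where 16.0% of all genes were called, and 2, Rab3c and Snap25, without Ifnb+/+ replicate 1 with rIFN-β, where 5.94% were). For rIFN-β in Ifnb-/- the 0 calls became 9 with array weights (28.1%), 4 with weights gene by gene (21.8%), 2 with only the compared groups (7.01%; Rims2 lower and Stx1a higher) and 1 at 1.5-fold (4.39%). For the interaction they became 17 with array weights (34.6%), 13 with weights gene by gene (22.6%), 4 at 1.5-fold (9.53%) and 0 to 3 when each array was left out (3 without Ifnb+/+ replicate 2, where 6.8% of all genes were called). Between the treated genotypes no alternative called a member, where the share of all genes ran from 0.0% by the methods' t-test to 2.12% with array weights. The weights gave Ifnb+/+ replicate 3 a value of 5736, and of 7.238 gene by gene, where no other array passed 2.276. The estimate behind the first had not converged, and the second was chosen after seeing the data.

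The 37 differences of single members were computed under the alternatives 913 times, of which 809 kept direction and side of the threshold, 96 passed it where the main value had not, 6, all Synpr in the untreated genotypes, no longer passed it, and 2 changed sign: Slc17a7 in the untreated genotypes was -0.939 to 0.05 when each array was left out, above 0 only without Ifnb+/+ replicate 1, and Rab3c with rIFN-β in Ifnb+/+ was -0.085 with the mean of its probe sets. The cause was not tested. With each array centred on its median, 24 of 38 members rather than 19 were positive for the genotype. The median of the members moved from 0.03 to 0.11, and that of all genes from -0.09 to -0.01.

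The labels number the arrays 1 to 3 in each group, and the check of whether same-numbered arrays deviate together gave a mixed result. Over 18 pairs r ran from -0.501 to 0.432, with 15 above 0 and 5 above 0.1. The same-numbered array was the best match in 24 of 36 cases, where an even split between 3 arrays gives 33.3%. Between untreated and treated arrays of 1 genotype, r for replicates 1, 2 and 3 was 0.298, 0.156 and 0.0647 in Ifnb+/+. In Ifnb-/- it was 0.0733, 0.0691 and 0.0505. Not every pair exceeded 0.1, so the arrays were treated as unpaired. With the replicate block, 1 member was called for the untreated genotypes, where 0.0879% of all genes were. For rIFN-β it called 0 members in Ifnb+/+ (4.66% of all genes) and 0 in Ifnb-/- (1.46%). Between the treated genotypes and for the interaction it called 0.0% of all genes. With the block, Synpr had an adjusted p of 0.0288 for the untreated genotypes.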
